A study of Mus musculus with 18 samples.

Results

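The 38 genes described here carry out fatty acid oxidation or stand around the peroxisome proliferator-activated receptors (PPARs). They were taken by symbol from the deposited read-count table, which lists 29112 genes, and all 38 were found there. Mitochondrial oxidation is represented by 19 of them and peroxisomal oxidation by 5, and the rest are acyl-CoA synthetases and a thioesterase (4), uptake, binding and lipid droplet proteins (3), the PPARs with a coactivator (4), and a secreted protein with 2 uncoupling proteins (3). RNA was sequenced from HL-1, a mouse atrial muscle cell line that descends from a tumour of mice carrying the SV40 large T antigen under the atrial natriuretic factor promoter. The 18 libraries form 6 groups of 3. The vehicle group and a high glucose group carry no transfected duplex in their labels and are called untransfected here. The other 4 groups were all treated with high glucose and harvested 48 h after transfection, with miR-200a-3p mimics, with a negative control for those mimics, with a miR-200a-3p inhibitor, or with the negative control that goes with the inhibitor. A mimic is a synthetic duplex that adds the microRNA, and an inhibitor is an antisense strand that binds it. The study asked what this microRNA does to the transcripts of these cells. The glucose concentration and the hours in it are not given in the sources used here. Whether replicate libraries stem from separate dishes is not given either, and the spread that each p-value is set against may therefore be technical.

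Fatty acids are activated to acyl-CoA by the ACSL synthetases, passed into mitochondria by the carnitine shuttle, and shortened there in a repeating spiral of a dehydrogenase, a hydratase, a second dehydrogenase and a thiolase, with the electrons of the first step handed to the respiratory chain through the electron transfer flavoprotein. Peroxisomes run a similar spiral on very long, branched and bile acid side chains, beginning with an acyl-CoA oxidase. The PPARs are nuclear receptors that bind fatty acids, pair with retinoid X receptors on DNA and, with coactivators such as PGC-1alpha, raise many of these genes. In the heart, where fatty acids are the main fuel, PPARalpha and PPARdelta are best known for this.

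The libraries held between 33655916 and 37928790 reads. A level of 3 reads, taken as the floor, corresponds to 0.0791 to 0.0891 CPM (a gene's reads scaled to a library of fixed size), and floors and counting intervals cover counting error only. Mimic replicate 2 stood apart: its log2 CPM correlated with the other mimic libraries at 0.981, while the other replicate pairs lay between 0.995 and 0.996 (across genes, which are not independent). All 14 macrophage markers examined were detected, and their summed level was 1645 CPM in that library against 41.4 to 79.2 CPM in the other 17. Each mimic value below is therefore also given without it where that changes the call. The cardiomyocyte label rested on few transcripts, since 11 of 12 markers were matched and their summed level was 33.2 to 90.7 CPM. Over all 18 libraries Nppa and Pln had 2 reads and 1 read, while Tnnt2 had 27988, Gata4 6262 and Myl4 2084. The other matched markers ranged from 33 reads for Tbx5 to 733 for Nkx2-5. Fibroblast markers summed to 10007 to 11956 CPM in the untransfected groups, 1067 to 1191 CPM in the mimic pair of groups and 2320 to 2487 CPM in the inhibitor pair, and their part in the differences between these groups was not tested. Over all 18 libraries the fibroblast marker reads were mostly Col3a1 (2385546), then Col1a2 (493990) and Col1a1 (169222). Pdgfra had 17681 reads, Dcn 17286, Postn 568 and Lum 12. Adipocyte markers summed to at most 0.347 CPM. In such bulk libraries, fewer cells of a type and less RNA per cell cannot be told apart.

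The microRNA sequence and its possible contacts with the members are shown first. Whether such contacts account for any change with the mimic was not tested. The mature microRNA (RefSeq, GRCm38.p6) is given with its seed, bases 2 to 8, in capitals.
mmu-miR-200a-3p: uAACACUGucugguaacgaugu
In 3' UTRs the matching words are CAGTGTTA (8 bases), CAGTGTT and AGTGTTA (7 bases each), searched on the transcript strand only. Of the 36 members that passed the filter on low counts, 9 (25%) held such a word and 0 held the 8-base one, against 27.5% and 5.31% of 12906 tested genes with an annotated 3' UTR. The median 3' UTR of these members was 771 bases and that of the tested genes 1347 bases. Ucp3, which was not tested, held a word as well. The words of 3 members that were called in the mimic comparison, and of the receptor and the coactivator that hold one, are printed 5' to 3' in transcript direction with the word in capitals, all in the last exon (GRCm39, the build of the deposited counts).
Acads, chr5:115248487-115248493, minus strand, 3' UTR in exon 10: gcacggagtttCAGTGTTtgagtccccag
Acsl1, chr8:46988992-46988998, plus strand, 3' UTR in exon 21: atgtttgctttCAGTGTTggctatttcta
Acsl3, chr1:78684932-78684938, plus strand, 3' UTR in exon 15: acatcctaggaCAGTGTTctctgtgttct
Pparg, chr6:115468199-115468205, plus strand, 3' UTR in exon 8: caaatgttttaAGTGTTAacactatggga
Ppargc1a, chr5:51613450-51613456, minus strand, 3' UTR in exon 13: tctcgcagaagCAGTGTTccatctttcac
The other members with a word were Cpt2, Hadhb, Cd36 and Ucp2. A word is a match of letters and not a shown site.

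PPARs bind a direct repeat, a pair of AGGTCA words in the same direction with 1 base of any kind between them. In promoters of 300 bases around the start site (RefSeq, GRCm38.p6), 33 of 38 members were matched. On either strand 0 of 33 held the exact repeat, against 0.0481% of 27025 genes. A repeat with up to 2 letters different was held by 7 of 33 (21.2%), against 4.4% of all genes, and the single word AGGTCA, which the exact repeat contains, by 8 of 33 (24.2%) against 18.1%. These 7 were Plin2, Cd36, Ucp3, Echs1, Etfa, Slc25a20 and Acox2. Of these, 2 are printed as examples, read 5' to 3' on the strand of the gene with the 13 matching letters in capitals. The others, among them Acox2, are not printed.
Plin2, match starting at -225: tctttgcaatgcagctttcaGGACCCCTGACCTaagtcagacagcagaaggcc
Cd36, match starting at -63: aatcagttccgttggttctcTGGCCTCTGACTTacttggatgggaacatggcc
In both the repeat is on the opposite strand, so its complement is what is seen. No binding of a receptor was measured here.

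Levels of different genes are compared per length, in the authors' FPKM, a read measure scaled by transcript length and library depth. In vehicle cells the members spanned from near 0 to about the level of Etfb. The highest were Etfb, the beta subunit of the electron transfer flavoprotein (94.4 ± 7.33 FPKM, mean ± SD, n = 3), Plin2, a coat protein of lipid droplets (85.3 ± 4.56), and Acadl, the long-chain acyl-CoA dehydrogenase (72.5 ± 3.33). In the vehicle group 17 of 38 members reached 10 FPKM and 9 stayed under 1 FPKM. Those 9 were Cpt1b, Acox2, Ehhadh, Cd36, Fabp3, Ppara, Ppargc1a, Ucp2 and Ucp3, which include the muscle carnitine palmitoyltransferase, the heart fatty acid-binding protein and the fatty acid transporter of muscle. Hadhb, which encodes the beta subunit of the mitochondrial trifunctional protein, was listed at 1.44 ± 0.095 FPKM and its partner Hadha at 21.1 ± 0.398 FPKM. These neighbours overlap at their 5' ends on opposite strands of chromosome 5, and the strand setting of the counting is not given in the sources used here, so the split of reads between them is uncertain.

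**Figure D1:**
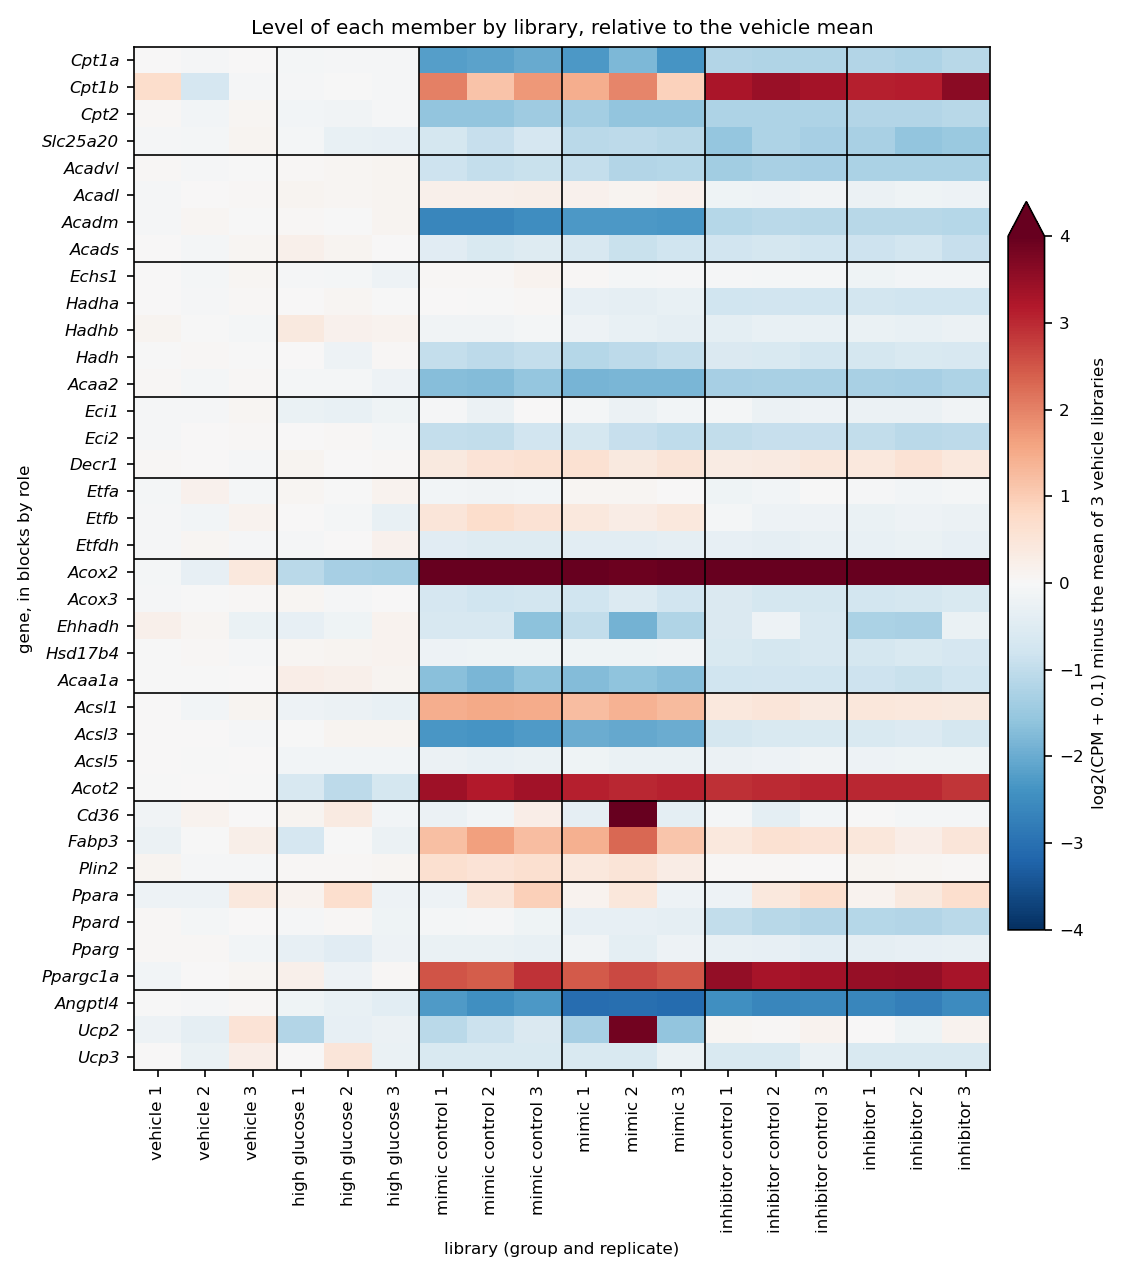
Levels of the 38 members in the 18 libraries, as log2(CPM + 0.1) minus the mean of the 3 vehicle libraries. Rows are genes in blocks by role, columns are libraries, and the scale stops at 4, which Acox2 passes in 10 of the 12 transfected libraries. The largest shifts separate transfected from untransfected libraries, Cd36 and Ucp2 stand out in mimic replicate 2 alone, and the inhibitor libraries look like those of their control.

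Of the members, 36 were tested with edgeR in one fit to all 18 libraries, a call being an adjusted p under 0.05 over the 15074 genes tested. Ppara, with 26 reads in all 18 libraries, and Ucp3, with 15, did not pass the filter. Without a reagent, 10 of 36 members (27.8%) were called in high glucose against vehicle, 3 higher and 7 lower, where 24.2% of all genes tested were called, 12% higher and 12.2% lower. The count was 6 of 38 (15.8%) with no filter on low counts, where 11.8% of genes were called. It was 5 of 33 (15.2%) in a fit to the compared groups alone, where 21.6% of genes were called, so the members' share lay above the background in the main test and below it there. For the mimic against its control 17 of 36 (47.2%) were called, 5 higher and 12 lower, against a background of 33.7%, 15.8% higher and 18% lower. Without mimic replicate 2 the count was 14 (38.9%) against 26.2% of genes. With limma on FPKM it was 10 (27.8%), 5 higher and 5 lower, against 30.6% of genes at a pseudocount of 1 and 32.1% at 0.1, so the members' share then lay below the background. Of all genes called for the mimic, 46.7% were higher with edgeR, 61.3% and 63.5% with limma at these pseudocounts. For the inhibitor against its control edgeR called 0 of 36, against 0% of 15074 genes. At an unadjusted p under 0.05 there were 0 members and 447 genes, and DESeq2 and limma also called 0 members.

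The groups with a negative control differed from untransfected high glucose cells far more. For the mimic control 31 of 36 members were called, 12 higher and 19 lower, against a background of 78.9%, 39% higher and 39.9% lower. For the inhibitor control 27 of 36 were called, 7 higher and 20 lower, against 79.5%, 40.1% higher and 39.3% lower. The 2 controls also differed from each other, with 26 of 36 called, 10 higher and 16 lower in the inhibitor control, against 74.2%, 38.5% higher and 35.7% lower. With so many genes called, a member's call carries little by itself in these 3 comparisons, and the sizes below are the description. Against high glucose, the transfected control, the transfection, the 48 h harvest and any difference in handling go together and cannot be told apart. Between the controls, both transfected and harvested at 48 h, the kind of control and any difference in handling cannot be told apart. Upper quartile scaling, which moved the median of all genes between the controls from 0.041 to 0.146, turned the split there to 12 higher and 11 lower. Of all genes called between the controls, 57.9% were higher with that scaling, against 51.8% in the main test.

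**Figure D2:**
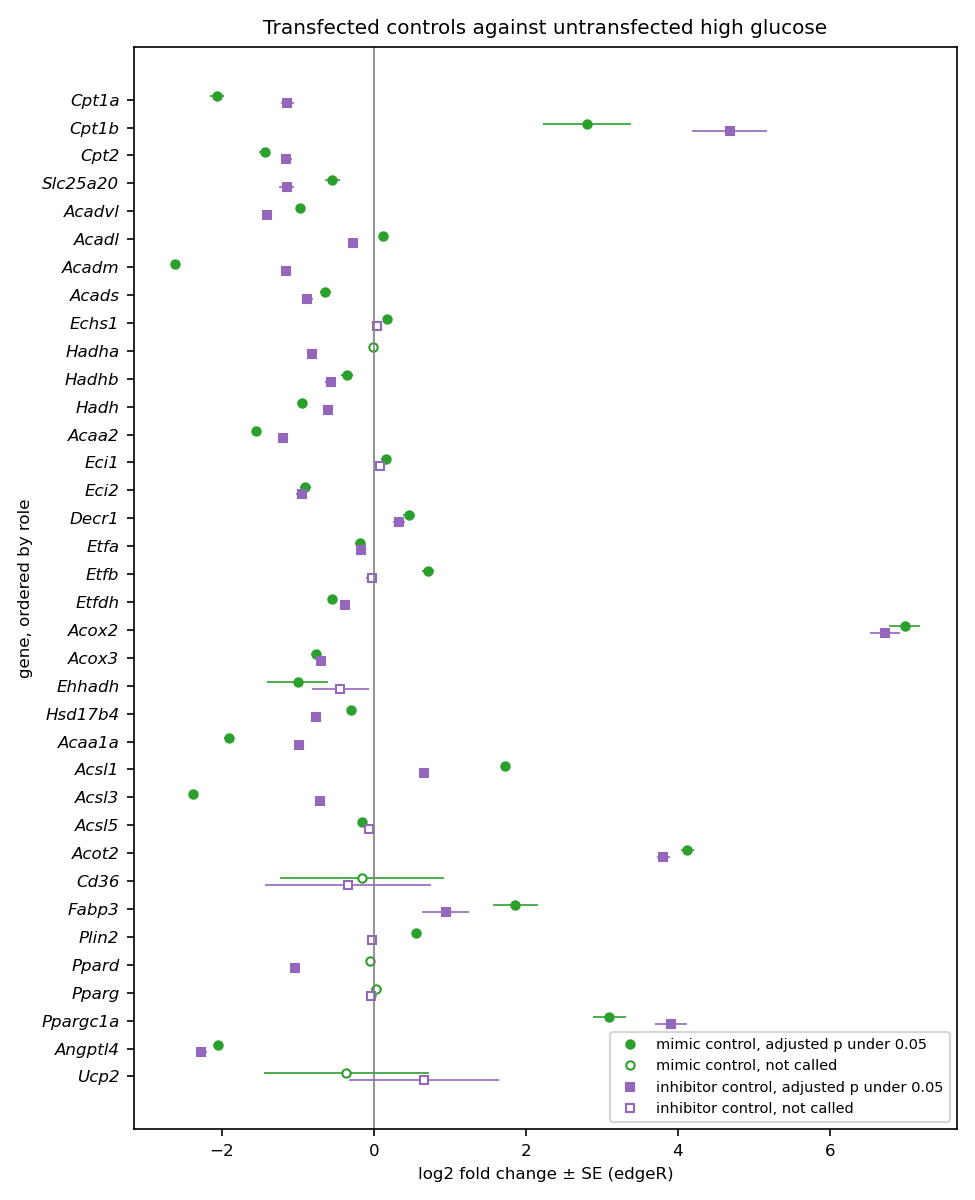
Log2 fold change ± SE (edgeR) of each tested member in the mimic control and the inhibitor control, each against the same 3 untransfected high glucose libraries. Genes are ordered by role from top to bottom, filled symbols are calls and open symbols are not. Acox2, Acot2, Ppargc1a and Cpt1b lie far to the right in both controls, and Acadm, Acsl3, Cpt1a and Angptl4 to the left.

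The carnitine shuttle was where the isoforms parted. Cpt1a, the liver form of the outer-membrane carnitine palmitoyltransferase and the rate-limiting gate of mitochondrial oxidation, was at 96.5, 92.5 and 95.9 CPM in vehicle replicates 1 to 3 and at 89.03, 92.8 and 91.2 CPM in high glucose. It was at 20.7, 21.4 and 23.5 CPM in the mimic control and at 42.2, 40.8 and 41.3 CPM in the inhibitor control. The 4 sets do not overlap except vehicle and high glucose, which share part of their range. The mimic control was lower than high glucose (log2 fold change -2.06 ± 0.094, edgeR adjusted p = 3.87e-14) and the inhibitor control less so (log2 fold change -1.13 ± 0.089, edgeR adjusted p = 3.26e-10). The difference between the controls was itself called (log2 fold change 0.92 ± 0.094, edgeR adjusted p = 2.57e-08).

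In the mimic libraries Cpt1a was at 19.2, 27.3 and 18.5 CPM. The 1 high value is that of mimic replicate 2, and over all 3 libraries there was no call (log2 fold change -0.012 ± 0.10, edgeR adjusted p = 0.947). Without that library the change was -0.22, with an edgeR adjusted p = 0.0139, lower than the control. Macrophage markers moved with that library, and their part in its Cpt1a level was not tested. In the inhibitor libraries Cpt1a was at 41.7, 40.7 and 43.6 CPM, overlapping the control.

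Cpt1b, the muscle form, was close to absent in untransfected cells, with 6, 0 and 2 reads in the vehicle libraries and 2, 2 and 2 in high glucose. The mimic control libraries held 19, 8 and 14 reads and the inhibitor control libraries 51, 59 and 52. Every transfected library exceeded every untransfected one. Against high glucose the pooled ratio was 7.40 in the mimic control (exact 95% interval 3.13 to 21.3, 41 against 6 reads) and 27.3 in the inhibitor control (12.3 to 75.4, 162 against 6 reads). The edgeR tests gave 2.81 ± 0.58 (adjusted p = 1.70e-04) and 4.68 ± 0.49 (adjusted p = 2.85e-08). Cpt1b passed the filter on low counts only through transfected libraries, where its reads are high, so these tests add no independent support. In the fit to the compared groups alone it was not tested for the mimic control. In level it reached 1.53 ± 0.113 CPM (SD, n = 3) where Cpt1a stood at 41.4 ± 0.675 CPM, and per length 0.443 ± 0.0321 against 5.33 ± 0.0896 FPKM. Cpt1b was at 0.342, 0.525 and 0.202 CPM with the mimic and 1.29, 1.31 and 1.86 CPM with the inhibitor, each overlapping its control and without a call.

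Cpt2, which returns the acyl group to CoA inside the inner membrane, and Slc25a20, the carnitine-acylcarnitine exchanger, were both lower in the transfected controls. Cpt2 was at 19.3 ± 0.653 CPM in high glucose, 7.13 ± 0.441 in the mimic control and 8.71 ± 0.0146 in the inhibitor control (changes -1.44 ± 0.072 and -1.15 ± 0.07). Slc25a20 fell more in the inhibitor control (-1.15 ± 0.10) than in the mimic control (-0.54 ± 0.10), and the controls differed (log2 fold change -0.60 ± 0.11, edgeR adjusted p = 3.26e-05). With the mimic Slc25a20 was lower again, at 5.5, 5.63 and 5.35 CPM against 7.13, 6.1 and 7.36 in its control (log2 fold change -0.32 ± 0.10, edgeR adjusted p = 0.0218). That call ended without mimic replicate 3, mimic control replicate 1 or mimic control replicate 3 (edgeR adjusted p = 0.0534, 0.0698 and 0.0848) and with limma on FPKM. Cpt2, whose 3' UTR holds a seed word, was not called with the mimic (0.012, 95% interval -0.16 to 0.18). None of the 4 shuttle genes was called between high glucose and vehicle, except that Slc25a20 was called lower without high glucose replicate 1 (-0.31, edgeR adjusted p = 0.0413) and with limma on log2(FPKM + 1).

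Among the 4 acyl-CoA dehydrogenases, which open each turn of the spiral for chains of a given length, the medium-chain enzyme Acadm moved most. It was at 142, 153 and 143 CPM in vehicle and 149, 145 and 156 CPM in high glucose, which overlap. It was at 23.99, 23.6 and 26.2 CPM in the mimic control and 29.8, 29.6 and 28.8 CPM with the mimic. It was at 65.4, 69.6 and 68.1 CPM in the inhibitor control and 66.96, 66.8 and 66.3 CPM with the inhibitor. Both controls lay below every untransfected library, and the mimic control was the lowest group. Against high glucose the mimic control was 6.1-fold lower (log2 fold change -2.61 ± 0.05, edgeR adjusted p = 7.03e-20) and the inhibitor control 2.22-fold lower (log2 fold change -1.15 ± 0.046, edgeR adjusted p = 8.26e-15), and the difference between them was 1.46 ± 0.05 (adjusted p = 2.94e-15). The mimic raised Acadm slightly over its control (log2 fold change 0.26 ± 0.051, edgeR adjusted p = 8.78e-04), in 3 of 3 libraries above all 3 control libraries, and kept the call without mimic replicate 2 (0.24, adjusted p = 0.00564). The mimic's change differed from the inhibitor's by 0.28 ± 0.069 (edgeR adjusted p = 0.0129).

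Acadl, the long-chain enzyme, moved less than Acadm in the transfected controls. It was at 139, 144 and 149 CPM in vehicle, 156, 150.4 and 154 CPM in high glucose, and 164, 167 and 169 CPM in the mimic control. It was at 160.4, 154 and 162 CPM with the mimic, 127, 125 and 129.8 CPM in the inhibitor control and 122, 129 and 124 CPM with the inhibitor. The inhibitor control libraries were below the high glucose ones (log2 fold change -0.27 ± 0.04, edgeR adjusted p = 4.93e-06). The mimic control was called higher (log2 fold change 0.12 ± 0.04, edgeR adjusted p = 0.0109), but on FPKM with limma the change was -0.047 and not called, so its direction differs between the 2 analyses. The inhibitor control was below the mimic control (log2 fold change -0.39, edgeR adjusted p = 3.64e-08). This call held in all 27 settings, with a change of -0.25 by limma on FPKM. No call was made for high glucose (0.092, 95% interval 0.0045 to 0.18), the mimic (-0.069, -0.16 to 0.019) or the inhibitor (-0.028, -0.12 to 0.06).

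Acadvl, the membrane-bound very long-chain enzyme, and Acads, the short-chain one, were lower in both controls than in high glucose. Acadvl went from 126 ± 2.78 CPM to 64.4 ± 2.83 CPM in the mimic control (-0.97) and to 47.6 ± 1.58 CPM in the inhibitor control (-1.40). Acads went from 28.00 ± 1.55 to 17.99 ± 0.843 (-0.64) and 15.3 ± 0.585 CPM (-0.87). With the mimic both fell further. Acads changed by -0.26 ± 0.072 (edgeR adjusted p = 0.00962), with all 3 mimic libraries (16.5, 13.8 and 14.8 CPM) below all 3 control libraries (18.7, 17.1 and 18.2 CPM). Acadvl changed by -0.19 ± 0.052 (edgeR adjusted p = 0.00792), a call that limma on FPKM did not make. No dehydrogenase was called for high glucose against vehicle or for the inhibitor.

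The later steps of the spiral include the trifunctional protein, which holds several activities for long chains in its Hadha and Hadhb subunits. Hadha was at 185, 175 and 187 CPM in vehicle, 185, 191 and 182 CPM in high glucose and 185, 181 and 189 CPM in the mimic control. It was at 146, 140.4 and 147 CPM with the mimic, 105, 108 and 105 CPM in the inhibitor control and 109.5, 104 and 105 CPM with the inhibitor. The first 3 groups overlap, and the mimic libraries lie below all of them. The mimic lowered it (log2 fold change -0.36 ± 0.041, edgeR adjusted p = 6.22e-06), with nearly the same value without mimic replicate 2 (-0.34, adjusted p = 3.35e-05), and the mimic's change differed from the inhibitor's (log2 fold change -0.36 ± 0.058, edgeR adjusted p = 9.99e-04). The call of the mimic on Hadha held in each of the 27 alternative settings. Its 3' UTR of 1511 bases holds no seed word. Hadha was also lower in the inhibitor control than in high glucose (-0.81) and than in the mimic control (-0.80). Against high glucose the mimic control showed no edgeR call (-0.0065, 95% interval -0.095 to 0.082), but limma on FPKM called it lower at -0.17.

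Hadhb was at 9.37 ± 0.705 CPM in vehicle and 11.03 ± 1.05 CPM in high glucose (log2 fold change 0.24 ± 0.077, edgeR adjusted p = 0.0309). This rise ended without vehicle replicate 2, vehicle replicate 3 or high glucose replicate 1 (edgeR adjusted p = 0.0759, 0.128 and 0.162) and under 4 of 9 other settings. It was lower in both controls than in high glucose (-0.36 and -0.57). With the mimic it changed by -0.17 ± 0.08 without a call (95% interval -0.34 to 0.0086). Hadh, the short-chain 3-hydroxyacyl-CoA dehydrogenase, and Acaa2, the mitochondrial thiolase, were lower in both controls. Hadh went from 82.5 ± 6.9 CPM in high glucose to 42.9 ± 1.51 and 54.4 ± 2.73 CPM (-0.94 and -0.60), and Acaa2 from 72.6 ± 3.75 to 24.7 ± 1.61 and 31.7 ± 0.152 CPM (-1.55 and -1.20). Acaa2 also fell with the mimic (log2 fold change -0.19 ± 0.055, edgeR adjusted p = 0.0121), a call that ended without mimic control replicate 3 (edgeR adjusted p = 0.0771) and with limma on FPKM. Echs1, the short-chain hydratase, stayed between 28.6 and 32.9 CPM in all group means. Its rise in the mimic control against high glucose was 0.17 and ended without high glucose replicate 3 (adjusted p = 0.0525) and with limma on FPKM.

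Unsaturated chains need isomerases and a reductase. Eci1, an enoyl-CoA isomerase, was lower in high glucose than in vehicle, at 22.7, 22.3 and 24.4 against 26.9, 26.9 and 28.7 CPM, with no overlap (log2 fold change -0.25 ± 0.066, edgeR adjusted p = 0.00887), and this call held in all 27 settings. Its call in the mimic control against high glucose (0.17) ended without high glucose replicate 1 or 2, mimic control replicate 1 or 3 (adjusted p = 0.0825, 0.0834, 0.0734 and 0.13) and under upper quartile scaling, and its value turned to -0.0036 on log2(FPKM + 1) with limma. Eci2, the second isomerase, was lower in both controls (-0.90 and -0.95) and Decr1, the dienoyl-CoA reductase, higher (0.46 and 0.33). None of the 3 was called for either reagent.

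The electron transfer flavoprotein did not move as one. Etfb went from 99.7 ± 10.97 CPM in high glucose to 164 ± 11.2 CPM in the mimic control (log2 fold change 0.71 ± 0.073, edgeR adjusted p = 1.99e-08) and stayed at 97.9 ± 4.92 CPM in the inhibitor control (-0.025, 95% interval -0.19 to 0.14). Etfa, the alpha subunit, and Etfdh, the oxidoreductase that passes the electrons on, were lower in both controls (-0.18 and -0.55 in the mimic control, -0.16 and -0.37 in the inhibitor control). The Etfa value in the inhibitor control lost its call under upper quartile scaling, under the stricter CPM filter, and without high glucose replicate 3 or inhibitor control replicate 1 (adjusted p = 0.189, 0.0583, 0.0824 and 0.0747). That in the mimic control lost it without high glucose replicate 3 (adjusted p = 0.0501). With the mimic Etfa was called higher (log2 fold change 0.18 ± 0.06, edgeR adjusted p = 0.0244) and Etfb lower (log2 fold change -0.22 ± 0.073, edgeR adjusted p = 0.0261). Neither call held without mimic replicate 2 (adjusted p = 0.0742 and 0.0715). The Etfa call also ended when mimic replicate 1 or any of the 3 mimic control libraries was left out, and the Etfb call without mimic control replicate 2 or 3.

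Over the 19 mitochondrial members together, 2 were called for high glucose against vehicle (1 higher and 1 lower, median log2 fold change -0.00), 8 for the mimic (2 higher and 6 lower, median -0.07) and 0 for the inhibitor (median -0.01). These are 10.5% and 42.1% for high glucose and the mimic, where 24.2% and 33.7% of all genes were called. In the mimic control against high glucose 18 of 19 were called, 6 higher and 12 lower (median -0.54), and in the inhibitor control 16, 2 higher and 14 lower (median -0.60). These are 94.7% and 84.2%, against 78.9% and 79.5% of all genes. The medians over all genes tested were 0.01 and 0.04.

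Of the 5 peroxisomal enzymes, Acox2, the oxidase that starts the shortening of branched chains and bile acid precursors, changed more than any other member between transfected and untransfected libraries. It was at 0.273, 0.211 and 0.425 CPM in vehicle (10, 8 and 15 reads) and 0.0851, 0.0578 and 0.0541 CPM in high glucose (3, 2 and 2 reads). It was at 8.8, 8.9 and 8.53 CPM in the mimic control and 6.1, 5.89 and 6.25 CPM with the mimic. It was at 7.6, 7.71 and 6.67 CPM in the inhibitor control and 6.31, 7.71 and 6.93 CPM with the inhibitor. High glucose libraries were below vehicle ones without overlap, and all 12 transfected libraries were far above all untransfected ones. The pooled ratio of high glucose to vehicle was 0.218 (exact 95% interval 0.0815 to 0.502, 7 against 33 reads), with an edgeR change of -2.14 ± 0.34 (adjusted p = 4.26e-04). On log2(FPKM + 1) with limma this change was -0.09 and not called. Acox2 passed the filter on low counts only through the transfected libraries, where it is high. In the fit to the vehicle and high glucose groups alone it was not tested. The ratio of the mimic control to high glucose was 133 (64.5 to 333, 862 against 7 reads) and of the inhibitor control 112 (54.1 to 279, 776 against 7 reads). On log2(FPKM + 0.1) with limma the mimic control's change was 4.25 in place of 6.98.

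The mimic lowered Acox2 against its control (log2 fold change -0.52 ± 0.10, edgeR adjusted p = 9.41e-04), with every mimic library below every control library, and without mimic replicate 2 the change was -0.51 (adjusted p = 0.00104). The inhibitor gave -0.069 (95% interval -0.30 to 0.16). The difference of the 2 effects was -0.45 ± 0.15, with an edgeR adjusted p = 0.0481 that passed the threshold narrowly and ended in 15 of 27 settings, 11 of which left out 1 library.

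Acaa1a, a peroxisomal thiolase with a near-identical copy, Acaa1b, between which uniquely mapped reads are split with uncertainty, was at 21.5 ± 1.17 CPM in high glucose, 5.75 ± 0.429 CPM in the mimic control and 10.9 ± 0.204 CPM in the inhibitor control (-1.90 and -0.98). Hsd17b4, the bifunctional enzyme of branched chains, went from 142 ± 3.19 to 115 ± 1.31 and 83.4 ± 2.25 CPM (-0.30 and -0.76). Both were called slightly higher in high glucose than in vehicle (0.19, edgeR adjusted p = 0.0267, and 0.12, adjusted p = 0.0316). Each of these calls ended in 7 of 27 settings, among them no filter on low counts and the fit to the compared groups alone. For Acaa1a the libraries concerned were vehicle replicates 1 and 2 and high glucose replicates 1 and 2. For Hsd17b4 they were vehicle replicates 1 and 3, high glucose replicates 2 and 3 and mimic replicate 2. Acox3, an oxidase of branched chains, was lower in both controls (-0.76 and -0.69). Ehhadh, the bifunctional enzyme of straight chains and a classical PPARalpha target, had 59 reads in the high glucose group and 27 in the mimic control, and its fall there (log2 fold change -1.002 ± 0.40, edgeR adjusted p = 0.028) ended with the DESeq2 test and without high glucose replicate 3 or mimic control replicate 3 (adjusted p = 0.0518, 0.108 and 0.155). Apart from Acox2, no peroxisomal member was called for either reagent.

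**Figure D3:**
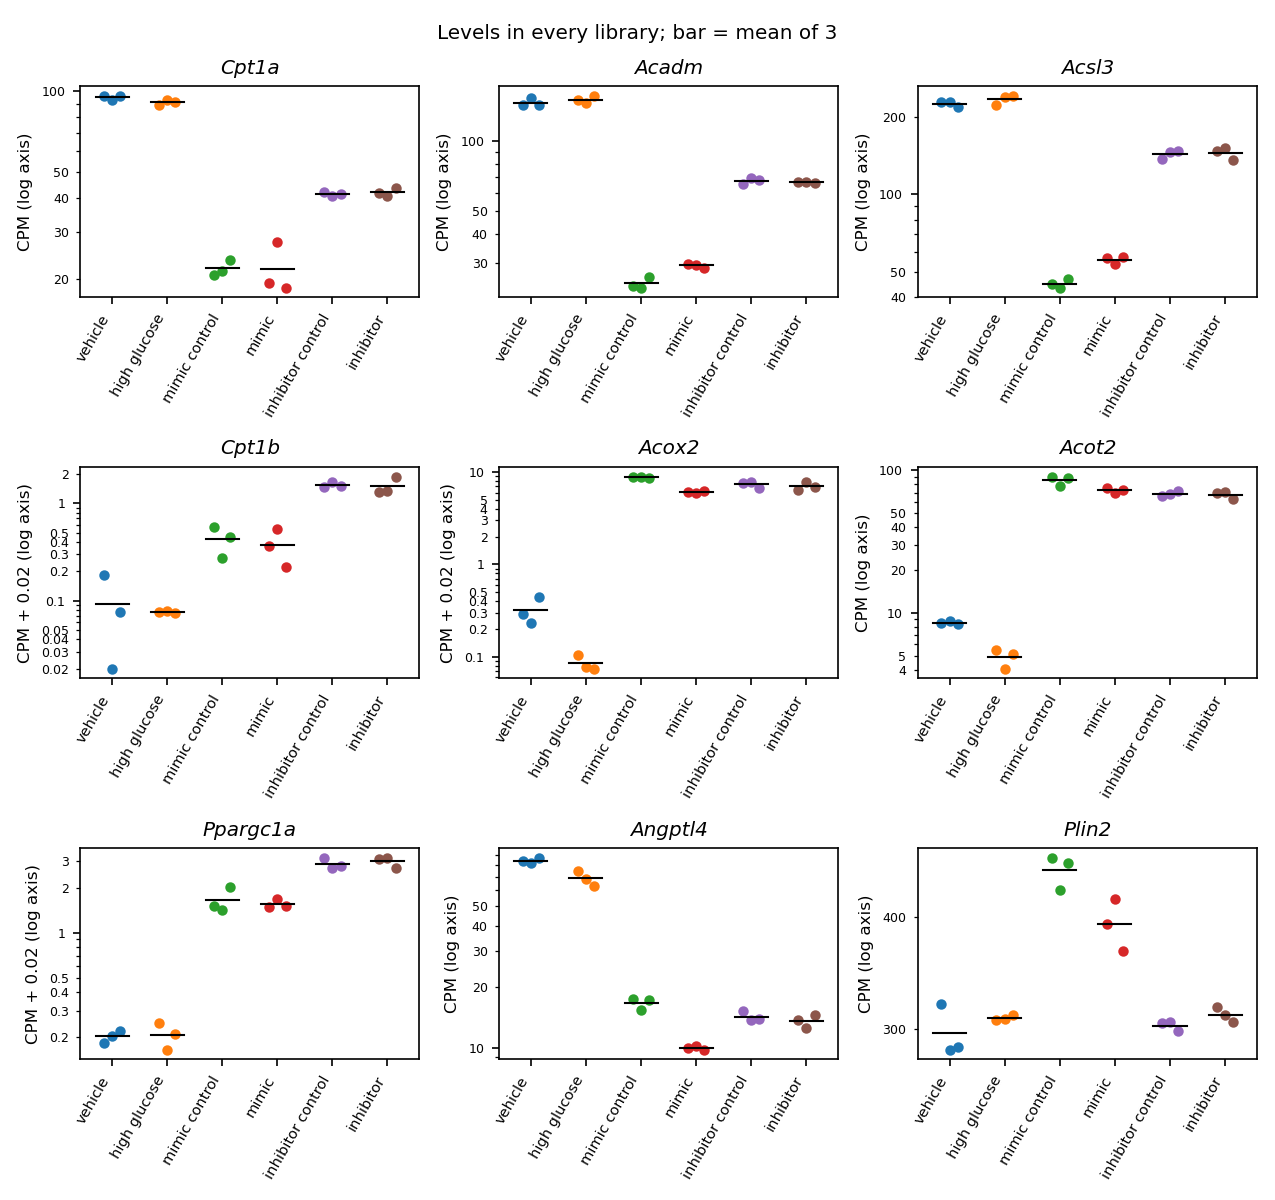
CPM in every library for 9 members, on log axes. Points are replicates 1 to 3 from left to right in each group and bars are group means, and 0.02 CPM was added for the 3 genes with levels near 0. Cpt1a, Acadm, Acsl3 and Angptl4 are lower in all transfected libraries, Cpt1b, Acox2, Acot2 and Ppargc1a are higher, and Plin2 is higher in the mimic pair of groups alone.

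The 3 long-chain acyl-CoA synthetases differed in direction. Acsl3, found on lipid droplets and the endoplasmic reticulum, was at 228, 228 and 217 CPM in vehicle and 222, 239 and 241 CPM in high glucose. It was at 44.9, 43.5 and 46.95 CPM in the mimic control, 56.8, 53.99 and 57.1 CPM with the mimic, 137, 146 and 147 CPM in the inhibitor control and 147, 152 and 136 CPM with the inhibitor. The mimic control was the lowest group, 5.19-fold below high glucose (log2 fold change -2.38 ± 0.053, edgeR adjusted p = 5.67e-19), and the inhibitor control lay between (log2 fold change -0.71 ± 0.05, edgeR adjusted p = 5.79e-11). The mimic libraries were all above their control (log2 fold change 0.31 ± 0.053, edgeR adjusted p = 2.44e-04), and the mimic's change differed from the inhibitor's (log2 fold change 0.29 ± 0.073, edgeR adjusted p = 0.0131). Its 3' UTR holds the seed word printed above.

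Acsl1, the main synthetase of heart and fat for oxidation, was higher in the transfected controls. It went from 13.6 ± 0.368 CPM in high glucose to 45.1 ± 1.03 CPM in the mimic control (log2 fold change 1.73 ± 0.058, edgeR adjusted p = 2.75e-16) and 21.6 ± 0.842 CPM in the inhibitor control (log2 fold change 0.67 ± 0.059, edgeR adjusted p = 2.30e-09). High glucose was below vehicle (16.1 ± 1.17 CPM, log2 fold change -0.24 ± 0.06, edgeR adjusted p = 0.00507), a call that held in all 27 settings. The mimic lowered it (log2 fold change -0.18 ± 0.054, edgeR adjusted p = 0.0141), and limma on FPKM made no such call. Acsl5, a mitochondrial and reticular form, ranged only from 93.97 to 113 CPM in its group means. Its fall in high glucose (log2 fold change -0.12 ± 0.039, edgeR adjusted p = 0.0336) ended in 10 of 27 settings, among them the omission of 2 vehicle libraries (1 and 3), each of the 3 high glucose libraries, inhibitor replicate 3, inhibitor control replicate 2 and mimic replicate 2, one at a time.

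Acot2, a mitochondrial thioesterase that frees fatty acids from CoA and a known PPARalpha target, moved far. It was at 8.46, 8.7 and 8.41 CPM in vehicle and 5.48, 4.05 and 5.14 CPM in high glucose, which do not overlap. It was at 90.5, 77.9 and 88.3 CPM in the mimic control and 74.9, 69.8 and 73.4 CPM with the mimic. It was at 65.8, 68.8 and 71.5 CPM in the inhibitor control and 69.6, 70.3 and 62.8 CPM with the inhibitor. High glucose was 1.74-fold below vehicle (log2 fold change -0.80 ± 0.10, edgeR adjusted p = 4.25e-06), and the mimic control and inhibitor control were 17.5-fold (log2 fold change 4.13 ± 0.085, edgeR adjusted p = 1.83e-19) and 14.03-fold above high glucose (log2 fold change 3.81 ± 0.085, edgeR adjusted p = 1.10e-18). The fall in high glucose held in all 27 settings. The mimic lowered Acot2 (log2 fold change -0.24 ± 0.067, edgeR adjusted p = 0.011), a call that ended without mimic control replicate 1 (adjusted p = 0.0586) and with limma on FPKM. Acot2 has a near-identical neighbour, Acot1, which had 88 reads in all libraries, and reads that map to both were dropped.

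Among the proteins of uptake and storage, Plin2 was the member with the most reads. It was at 319.5, 284 and 286 CPM in vehicle and 307, 307 and 311 CPM in high glucose, which overlap. It was at 467, 429.7 and 459.6 CPM in the mimic control and 393, 419 and 367 CPM with the mimic. It was at 304, 305 and 298 CPM in the inhibitor control and 317, 311 and 305 CPM with the inhibitor. Only the mimic pair of groups stood above the rest, since the mimic control was above high glucose (log2 fold change 0.55 ± 0.052, edgeR adjusted p = 5.94e-09) and the inhibitor control was not (-0.027, 95% interval -0.14 to 0.087), and the controls differed (log2 fold change -0.58 ± 0.053, edgeR adjusted p = 4.35e-09). The mimic lowered Plin2 against its control (log2 fold change -0.20 ± 0.052, edgeR adjusted p = 0.00609), and without mimic replicate 2 the change was -0.26 (adjusted p = 0.00155). Limma on FPKM did not call it.

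Fabp3, the heart fatty acid-binding protein, was low everywhere. It was at 0.44 ± 0.12 CPM in high glucose, 1.61 ± 0.312 CPM in the mimic control (log2 fold change 1.86 ± 0.30, edgeR adjusted p = 8.66e-06) and 0.851 ± 0.0567 CPM in the inhibitor control (log2 fold change 0.94 ± 0.31, edgeR adjusted p = 0.00885). The latter call ended without high glucose replicate 1 (adjusted p = 0.0509). Cd36, the fatty acid transporter and scavenger receptor, which macrophages express strongly, was at 1.31, 1.61 and 1.47 CPM in vehicle and 1.59, 1.91 and 1.35 CPM in high glucose. It was at 1.24, 1.34 and 1.79 CPM in the mimic control, 1.38, 1.09 and 1.36 CPM in the inhibitor control and 1.43, 1.37 and 1.38 CPM with the inhibitor. The mimic libraries held 1.11, 56.1 and 1.1 CPM, so 1 library carried the rise. The call for the mimic (log2 fold change 3.74 ± 0.95, edgeR adjusted p = 0.00554) ended without it, at -0.40 (adjusted p = 0.161). In the same library Lyz2 stood at 870 CPM against 12.7 to 18.6 CPM in the other 17. The part of macrophage transcripts in the Cd36 value was not tested.

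Of the receptors, Ppara, which drives oxidation in heart and liver, was next to undetected, with 26 reads over 18 libraries. Its levels were 0, 0 and 0.0567 CPM in vehicle, 0.0284, 0.0867 and 0 CPM in high glucose and 0, 0.0636 and 0.124 CPM in the mimic control. They were 0.0285, 0.0583 and 0 CPM with the mimic, 0, 0.0561 and 0.0867 CPM in the inhibitor control and 0.0275, 0.0535 and 0.0859 CPM with the inhibitor. Most of these lie at or under the floor of 3 reads, so no difference was detectable at this depth. Ppard, the widely expressed receptor, was the most abundant of the 3 per length, at 15.5 ± 0.377 FPKM in vehicle against 7.96 ± 0.589 FPKM for Pparg.

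Ppard was at 120.0, 109.9 and 116 CPM in vehicle, 111, 119 and 103 CPM in high glucose and 109.8, 110.5 and 103 CPM in the mimic control. It was at 92.1, 91.4 and 89.3 CPM with the mimic, 58.6, 52.96 and 50.8 CPM in the inhibitor control and 52.3, 51.2 and 54.3 CPM with the inhibitor. The libraries of the inhibitor pair of groups lay below all untransfected ones. For the inhibitor control against high glucose the log2 fold change was -1.04 ± 0.058 (edgeR adjusted p = 1.56e-12). The mimic control overlapped the untransfected groups (-0.043 against high glucose, 95% interval -0.17 to 0.08), though limma on FPKM called it lower at -0.19. The mimic lowered Ppard (log2 fold change -0.24 ± 0.057, edgeR adjusted p = 0.00294), with 3 of 3 libraries below the control, in each of the 27 settings. The test of the mimic's change against the inhibitor's gave -0.20 ± 0.082 (edgeR adjusted p = 0.105). Its 3' UTR of 1625 bases holds no seed word.

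Pparg, the receptor of fat cells and macrophages, was at 24.1, 24.2 and 21.5 CPM in vehicle and 18.6, 16.9 and 20.2 CPM in high glucose, without overlap (log2 fold change -0.32 ± 0.072, edgeR adjusted p = 0.00252). This fall held in all 27 settings. It was at 19.2, 19.1 and 18.8 CPM in the mimic control, 21.2, 17.8 and 20.4 CPM with the mimic, 18.9, 18.3 and 17.3 CPM in the inhibitor control and 17.96, 18.5 and 19.1 CPM with the inhibitor. These 4 groups overlap the high glucose group, and no further call was made on Pparg, for example 0.055 with the mimic (95% interval -0.10 to 0.21).

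Ppargc1a, which encodes the coactivator PGC-1alpha, was low in untransfected cells, at 0.164, 0.184 and 0.198 CPM in vehicle and 0.227, 0.145 and 0.189 CPM in high glucose. It was at 1.5, 1.4 and 2.01 CPM in the mimic control and 1.45, 1.66 and 1.48 CPM with the mimic. It was at 3.15, 2.69 and 2.77 CPM in the inhibitor control and 3.09, 3.13 and 2.69 CPM with the inhibitor. Transfected and untransfected libraries did not overlap, and the inhibitor control was above the mimic control (log2 fold change 0.81 ± 0.16, edgeR adjusted p = 1.11e-04). Ppargc1a passed the filter on low counts only through the transfected libraries. The pooled ratio to high glucose was 8.72 in the mimic control (exact 95% interval 5.46 to 14.7, 161 against 20 reads) and 15.3 in the inhibitor control (9.76 to 25.5, 304 against 20 reads). Neither reagent gave a call, with -0.095 for the mimic (95% interval -0.45 to 0.26) and 0.048 for the inhibitor (-0.28 to 0.38).

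Angptl4, a secreted inhibitor of lipoprotein lipase and among the most responsive PPAR targets, gave the most strongly supported mimic change among the members. It was at 83.5, 81.5 and 87.1 CPM in vehicle and 75.2, 68.6 and 63.01 CPM in high glucose, which do not overlap. It was at 17.4, 15.4 and 17.2 CPM in the mimic control and 10.00, 10.2 and 9.81 CPM with the mimic. It was at 15.3, 13.7 and 13.9 CPM in the inhibitor control and 13.8, 12.6 and 14.6 CPM with the inhibitor. The mimic libraries were the lowest of all 18. The mimic lowered it 1.67-fold (log2 fold change -0.74 ± 0.077, edgeR adjusted p = 2.66e-06), and without mimic replicate 2 the change was -0.76 (adjusted p = 2.33e-06). The inhibitor gave -0.067 (95% interval -0.23 to 0.10), and the difference between the 2 effects was -0.67 ± 0.11 (edgeR adjusted p = 9.59e-04). High glucose was below vehicle (log2 fold change -0.29 ± 0.064, edgeR adjusted p = 0.00245), and the mimic and inhibitor controls were 4.13-fold and 4.82-fold below high glucose (-2.05 and -2.27). The 3 calls named here for the mimic, for high glucose and for the difference of effects held in all 27 settings. Its 3' UTR of 1637 bases holds no seed word.

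Ucp2, a mitochondrial carrier abundant in immune cells, was at 0.928, 0.817 and 1.61 CPM in vehicle, 0.426, 0.838 and 0.893 CPM in high glucose and 0.46, 0.54 and 0.68 CPM in the mimic control. It was at 1.13, 1.12 and 1.18 CPM in the inhibitor control and 1.07, 0.937 and 1.2 CPM with the inhibitor. With the mimic it was at 0.371, 16.9 and 0.289 CPM, again high in replicate 2 alone, and the call (log2 fold change 3.38 ± 0.96, edgeR adjusted p = 0.0106) ended without that library (-0.76, adjusted p = 0.175). Without it the inhibitor control was above high glucose (0.66, adjusted p = 0.0202) and above the mimic control (1.01, adjusted p = 0.00179). Ucp3, the muscle uncoupling protein, had 15 reads in all, 13 of them in the 6 untransfected libraries, and no fold is given.

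**Figure D4:**
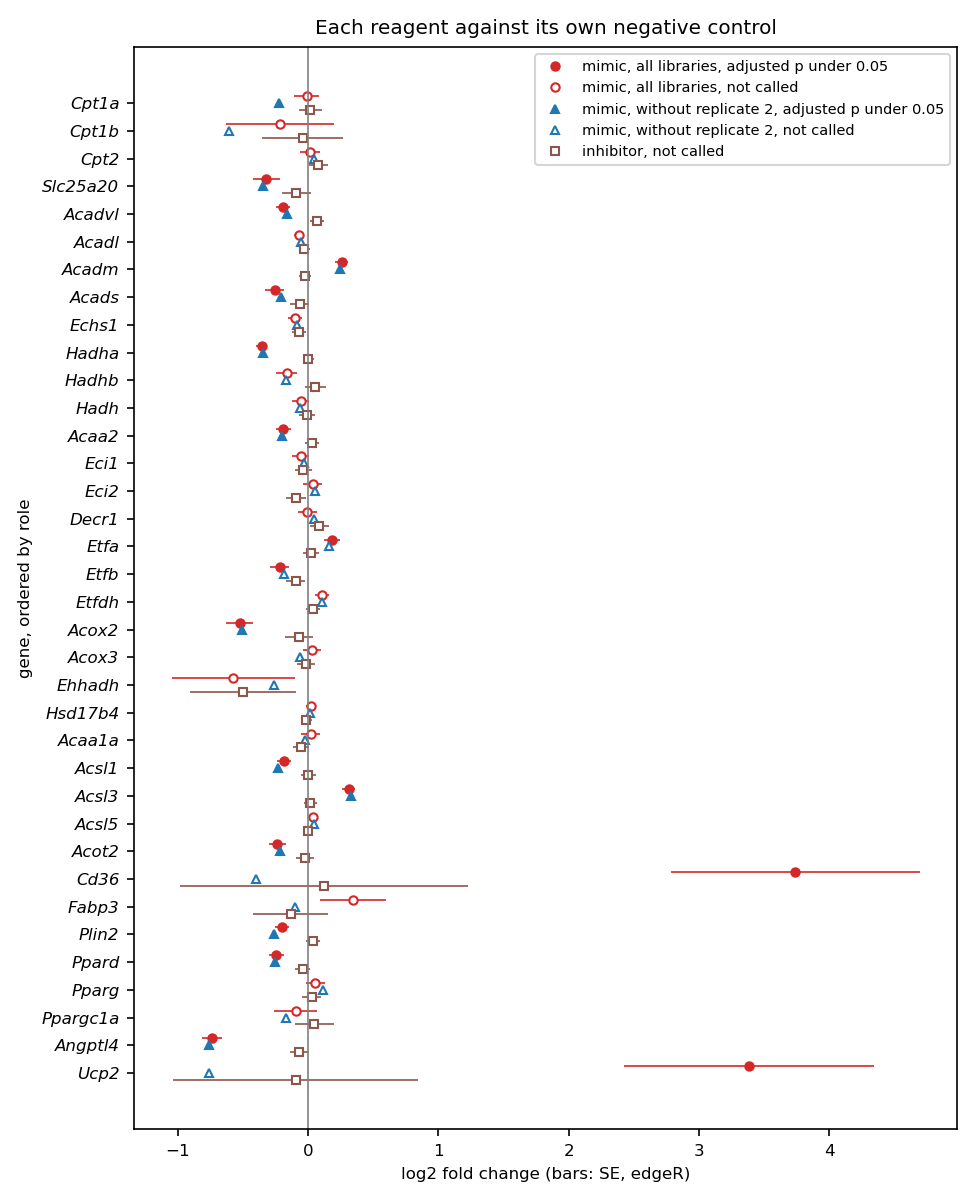
Log2 fold change of each tested member for the mimic over its control, with all libraries and without mimic replicate 2, and for the inhibitor over its control. Bars are SE (edgeR), filled symbols are calls and open symbols are not. Cd36 and Ucp2 move from above 3 to below 0 when replicate 2 is left out, Angptl4, Acox2 and Hadha stay on the left, Acsl3 and Acadm stay on the right, and the inhibitor has no filled symbol.

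Of the 9 tested members with a seed word, edgeR called Acads and Acsl1 lower and Acsl3 higher with the mimic, and Cd36 and Ucp2 higher through replicate 2. Cpt2 (0.012), Hadhb (-0.17), Pparg (0.055) and Ppargc1a (-0.095) were not called. Angptl4, Acox2 and Hadha, the called members with the largest falls, hold no word in their annotated 3' UTR, which says only that these letters are not in that window.

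For the inhibitor the smallest member p was that of Etfb (unadjusted p = 0.213, -0.095, 95% interval -0.26 to 0.066). The members' changes ran from -0.50 for Ehhadh to 0.12 for Cd36, with a median of -0.01. Intervals were narrow for well-read members, such as -0.18 to 0.21 for Cpt1a, -0.12 to 0.081 for Acadm and -0.074 to 0.15 for Plin2. They were wide for Cd36 (-2.29 to 2.54) and Cpt1b (-0.72 to 0.64). The spread of Cd36 was estimated over all 18 libraries, which include mimic replicate 2 at 56.1 CPM. Its inhibitor and inhibitor control libraries spanned only 1.09 to 1.43 CPM. The difference between the mimic's and the inhibitor's effect was called for 7 of 36 members, 2 higher and 5 lower, against 13.2% of all genes, 4.63% higher and 8.59% lower. These were Acadm and Acsl3, higher, and Angptl4, Acox2, Hadha, Acadvl and Plin2, lower.

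Other genes of the same pathways were taken from lists chosen by name. Of 32 further oxidation genes, 9 were called for high glucose against vehicle (6 higher and 3 lower), 14 for the mimic (8 higher and 6 lower) and 0 for the inhibitor. These are 28.1% and 43.8% for high glucose and the mimic, against 24.2% and 33.7% of all genes. Without mimic replicate 2 the mimic's count was 8, a share below that of all genes in the same fit. In high glucose Pex11a, a peroxisome division protein, went from 3.82 to 2.2 CPM (log2 fold change -0.79 ± 0.13, edgeR adjusted p = 1.59e-04). Acadsb, the dehydrogenase of short branched chains, was higher (0.39), as were Acad10 (0.36) and Crot, the peroxisomal carnitine octanoyltransferase (0.30). With the mimic Abcd2, a peroxisomal fatty acid transporter, was called at 2.03 through replicate 2 (0.39 without it, adjusted p = 0.471). Pex7, an import receptor (0.45), and Hibch, of valine breakdown (0.32), were higher, and Acot8, a peroxisomal thioesterase (-0.35), lower, the last of these calls ending without replicate 2 (adjusted p = 0.0938). For the inhibitor the smallest p was that of Acat1, the acetoacetyl-CoA thiolase (-0.11, unadjusted p = 0.0348). In the mimic control against high glucose 26 of 32 were called (8 higher and 18 lower) and in the inhibitor control 25 (7 higher and 18 lower). Of all genes 78.9% and 79.5% were called there.

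Of 29 further PPAR targets and lipid genes 24 were tested. For high glucose 7 were called (3 higher and 4 lower), for the mimic 10 (5 and 5) and for the inhibitor 0. These are 29.2% and 41.7% for high glucose and the mimic, against 24.2% and 33.7% of all genes. Without mimic replicate 2 the mimic's count was 5, a share below that of all genes in the same fit. Plin4, a lipid droplet coat protein, fell from 20.4 to 9.02 CPM in high glucose (log2 fold change -1.18 ± 0.078, edgeR adjusted p = 2.58e-09), and Lpin1, a phosphatidate phosphatase, fell by a smaller amount (-0.38). Acsl4 (0.48) and Cpt1c (0.39), which belong to the families of members, rose. With the mimic Fabp4, a binding protein of adipocytes and macrophages, was called at 4.64 through replicate 2 (0.48 without it, adjusted p = 0.624), and the call of Hilpda, an inhibitor of triglyceride lipase (0.43), also ended without it (adjusted p = 0.107). Lpl, lipoprotein lipase, rose (log2 fold change 0.35 ± 0.073, edgeR adjusted p = 0.00124) and Slc27a4, a fatty acid transport protein, fell (log2 fold change -0.36 ± 0.077, edgeR adjusted p = 0.00154), both also without replicate 2. For the inhibitor the smallest p was that of Pnpla2, the triglyceride lipase (-0.13, unadjusted p = 0.066). In the mimic control 20 of 24 were called against high glucose (8 higher and 12 lower) and in the inhibitor control 17 (8 higher and 9 lower). Of all genes 78.9% and 79.5% were called there. Pdk4, a PPAR target that restrains glucose oxidation, named here after its value was seen, went from 12.7 CPM in high glucose to 1.55 CPM in the mimic control (log2 fold change -3.03 ± 0.09, edgeR adjusted p = 4.28e-17).

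Of 19 receptor partners and regulators 17 were tested. For high glucose Ncoa2, a coactivator, was higher (0.27) and Nrf1, a regulator of mitochondrial genes, lower (-0.20). These 2 were 11.8% of the list, against 24.2% of all genes. For the mimic 6 were called (3 higher and 3 lower), 35.3% against 33.7% of all genes. Without mimic replicate 2 there were 4, a share below that of all genes in the same fit. Of the 3 that were higher, Sirt1, a deacetylase that acts on PGC-1alpha, rose from 8.75 to 11.99 CPM (log2 fold change 0.45 ± 0.082, edgeR adjusted p = 4.19e-04), and Hif1a (0.29) and Tfam, the mitochondrial transcription factor (0.22), rose as well. The 3 lower ones are not described here. The calls of the higher 3 were also made without replicate 2. For the inhibitor 0 were called, and the smallest p was that of Prkaa1, a catalytic subunit of AMP-activated kinase (0.13, unadjusted p = 0.0411). In the mimic control 16 of 17 (94.1%) and in the inhibitor control 13 of 17 (76.5%) were called against high glucose, where 78.9% and 79.5% of all genes were.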

How the data were processed

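RNA of 18 HL-1 libraries was measured. Per the labels' protocols and the submitters' processing notes, the authors dropped reads rich in undetermined bases, trimmed with FASTX-Toolkit 0.0.13, aligned with HISAT2 to GRCm39 and deposited counts of uniquely mapped reads per gene, so genes with close copies can read low. Neither the counting program nor its use of strand is stated by the labels. The authors also deposited FPKM values, used here to compare levels between genes and as an alternative unit.

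Counts were scaled by TMM, filtered for low values (filterByExpr, minimum count 10, minimum total 15) and tested with edgeR 4.0.16 quasi-likelihood in 1 fit to all 18 libraries with 1 term per group (12 residual degrees of freedom). The Benjamini-Hochberg adjustment ran over 15074 genes. Fold changes are log2 with their standard errors, and levels are TMM-scaled CPM. Scripts were tested on simulated data. Pooled read ratios have exact conditional binomial intervals. Alternatives were DESeq2 size factors and test (1.42.0), upper quartile scaling, other filters, the compared groups alone, a replicate block, limma (3.58.1) on log2(FPKM + 1) and log2(FPKM + 0.1), and leaving out each library, in R 4.3.3.

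The members and lists were chosen with earlier results of these data known. Some members were described whatever their values, and others by the largest called changes in each comparison among genes of at least 1 CPM. From each other list up to 4 called genes with the largest changes were named, or the one with the smallest p where none was called. One gene that this rule would name is not reported here.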

Additional observations from a re-analysis of the deposited data

Results flagged for a closer look

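For 7 members the effect of the mimic over its control differed from that of the inhibitor over its control by an edgeR test of the difference itself. The difference on the log2 scale was -0.67 for Angptl4 (adjusted p = 9.59e-04) and -0.36 for Hadha (adjusted p = 9.99e-04). It was 0.29 for Acsl3 (adjusted p = 0.0131) and 0.28 for Acadm (adjusted p = 0.0129). These 4 calls held in each of the 27 alternative settings.

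The other three were closer to the threshold. The difference was -0.26 for Acadvl (adjusted p = 0.0264), and without mimic replicate 2 it was -0.23 and not called (adjusted p = 0.0644). It was also not called without inhibitor replicate 2 or 3, inhibitor control replicate 1, or mimic control replicate 1 or 3, with adjusted p-values up to 0.0728. Under 2 of the 9 other settings the Acadvl difference was not called either. For Acox2 it was -0.45 (adjusted p = 0.0481) and ended when any of 11 single libraries was left out, with adjusted p-values up to 0.136. The Acox2 call also ended under 4 of the 9 other settings. For Plin2 the difference was -0.24 (adjusted p = 0.0369) and ended when any of 8 single libraries was left out, with adjusted p-values up to 0.0838, though not without mimic replicate 2 (-0.30, adjusted p = 0.0136). The Plin2 call also ended under 3 of the 9 other settings.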

How the results depend on the processing

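Over 252 member results and 27 settings, 6575 of 6773 values kept their side of the threshold, and their direction where they were called. Of the rest, 145 lost a call, 45 gained one and 8 called values turned sign. A further 166 values that were not called also turned sign. Members called for high glucose against vehicle numbered 6 with no filter on low counts and 5 in the fit to the compared groups alone, against 10. For the mimic they numbered 10 with limma on FPKM at either pseudocount, against 17. For the difference of effects they numbered 4 with limma on log2(FPKM + 0.1), against 7. Of 15074 genes, that limma fit called 850 higher and 752 lower for the difference, against 698 and 1295 in the main test. The causes were not tested. Leaving out 1 library gave 7 to 10 for high glucose, 13 to 17 for the mimic, 0 to 0 for the inhibitor, 28 to 31 for the mimic control, 26 to 28 for the inhibitor control, 24 to 27 between the controls and 4 to 8 for the difference of effects. The shares of all genes in these fits are not all given here. The ranges therefore describe how far calls held, and not the members against other genes. With a replicate block the counts were 10, 17, 0, 31, 27, 26 and 6 in the same order of comparisons, the Acox2 difference being lost (edgeR adjusted p = 0.0602). Of 15074 genes the block fit called 1729 higher and 1771 lower for high glucose, 2228 and 2655 for the mimic and 0 and 0 for the inhibitor. It called 5837 and 6007 for the mimic control, 6031 and 5919 for the inhibitor control, 5780 and 5366 between the controls and 591 and 1225 for the difference. The replicate numbers did not pair the libraries: of 45 same-number pairs 1 correlated above 0.1 (median -0.000599), and 8 of 18 libraries were closest to their own number.

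Without mimic replicate 2 the mimic changes of Ucp2 (-0.76) and Cd36 (-0.40) turned sign, and leaving out mimic replicate 3 or 1 raised them to as much as 3.93 and 4.28. With limma on log2(FPKM + 1) and log2(FPKM + 0.1) a change of sign was also seen for Acadl (-0.0472 and -0.0477) and Eci1 (-0.00357 and -0.00404) in the mimic control and for Echs1 between the controls (0.00139 and 0.00183). The median of all genes moved by over 0.1 in 2 cases, from 0.041 to 0.146 between the controls with upper quartile scaling and from 0.014 to -0.122 in the mimic control with limma on log2(FPKM + 0.1). Depth limits Ppara, Ucp3, and the untransfected levels of Cpt1b, Acox2 and Ppargc1a.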
